A study of Mus musculus with 12 samples.

Results

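Melanoma cells grown in medium from interleukin-4-treated macrophages were compared with melanoma cells grown in medium from untreated macrophages. The cells were B16F10, an established pigmented mouse melanoma line labelled wild type. They had spent 24 h in conditioned medium of mouse macrophages grown from bone marrow (BMDM), which had first been treated for 24 h, and their mRNA was sequenced. For the group called M0 the macrophages had received control medium, and for the group called M2 they had received 20 ng/ml interleukin-4 (IL-4). The comparison uses 6 of the 12 libraries of the series, 3 M0 and 3 M2. The other libraries, 3 from macrophages given 20 ng/ml interferon gamma (M1) and 3 from macrophages given melanoma-conditioned medium (TAM), helped to estimate the spread and are given beside single genes. The labels do not say whether IL-4 was washed out before the macrophage medium was collected, so IL-4 carried over in the medium and products of the macrophages cannot be told apart. Whether the 3 libraries of a group are separate cultures is not stated either, so the p-values cover the spread between libraries, and that spread may be technical.

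IL-4 binds a receptor whose specific chain is encoded by Il4ra, paired with the common gamma chain (Il2rg) in blood cells or with Il13ra1 in other cells, and signals through the transcription factor STAT6. In macrophages this gives the state called M2 or alternatively activated, known for repair, matrix turnover and damped inflammation. STAT3 is a related factor that transmits signals of interleukin-6, interleukin-10 and their relatives, raises its own gene, and induces Socs3, the feedback inhibitor of the gp130 receptor chain. Melanoma cells of this line make pigment in melanosomes, using enzymes and structural proteins whose genes are controlled by the factor MITF.

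1 of the M0 libraries stood apart. In M0 replicate 1 ribosomal protein genes took 7.21% of counts, against 3.28% to 3.84% in the other 11 libraries, and the exon length of its genes, averaged over counts, was 4545 bases against 5817 to 6091. The correlation of log2 CPM across genes was 0.9501 and 0.9517 between this library and the other M0 libraries. It was 0.9971 between M0 replicates 2 and 3, 0.9969 to 0.9973 among the M2 libraries, and 0.9965 to 0.9973 between M0 replicates 2 and 3 and the M2 libraries. Counts of genes and the changes of called genes are therefore given with all 3 M0 libraries and with M0 replicates 2 and 3. Totals ran from 15916756 counts in M0 replicate 2 to 20863973 in M0 replicate 3. Of 23 macrophage markers 10 had no count in any M0 or M2 library, among them Ptprc, Adgre1, Itgam, C1qa, Mrc1 and Cd14, and the summed level of the list was 5.37 to 8.13 CPM (counts scaled to the library total) in M0 and 6.02 to 6.72 in M2. Of 12 markers of IL-4-polarised macrophages 9 had none, and their sum did not exceed 0.354 CPM in M2. Neutrophil markers reached at most 0.206 CPM and lymphocyte markers at most 1.17 CPM, while fibroblast and endothelial markers summed to 18.1 to 25 CPM in M0 and 24.4 to 26.7 CPM in M2. All 8 melanocyte identity genes were abundant enough to be tested, and together they reached 20809.5 to 21034 CPM in M0 and 19358.3 to 19724.7 CPM in M2.

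The melanoma transcriptome in M2 medium was close to that in M0 medium. Without M0 replicate 1, Stat3 and several genes known to follow it (Socs3, Gfap, Bcl6, Fos) were higher in M2, as were the interferon-inducible genes Irgm2, Il12rb1 and Ifi27. Pigment cell genes were among those lower in M2, Pmel, Tyrp1, Trpm1, Mlph and Bace2 with them. Most differences were under 1.5-fold. With all 3 M0 libraries no gene passed the test.

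In numbers, edgeR's quasi-likelihood test with Benjamini-Hochberg adjustment called 51 of 14968 genes (0.341%) at an adjusted p under 0.05 with M0 replicates 2 and 3. Of these, 31 were higher in M2 (0.207% of genes tested) and 20 were lower (0.134%). The median log2 fold change was 0.36 among the genes called higher and -0.25 among those called lower. Il12rb1, Irgm2 and Fos were at least 2-fold higher, and the pseudogene Gm10705 was the 1 gene at least 2-fold lower. Under 1.5-fold were 24 of the 31 higher and 19 of the 20 lower genes. The count rested partly on single libraries: it was 9 without M0 replicate 2, which leaves a single M0 library assumed to vary like the other groups, 33 without M0 replicate 3, 26 without M2 replicate 1, 52 without M2 replicate 2 and 35 without M2 replicate 3. Of the 38 called genes that the naming rule selects, Stat3 was the 1 gene called in all 5 of these fits and in all 10 other settings of the fit without M0 replicate 1. As without M0 replicate 2, the fit without M0 replicate 3 leaves a single M0 library, so the same assumption holds there.

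**Figure D1:**
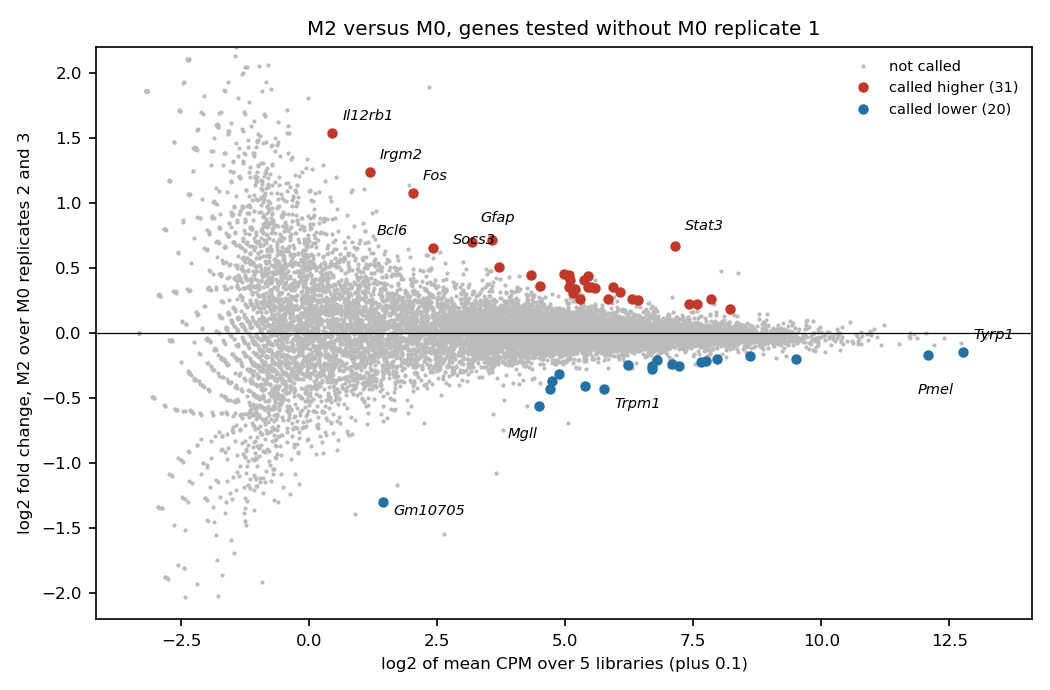
Each point is 1 of the genes tested with M0 replicates 2 and 3, with the log2 of its mean CPM over 5 libraries on the x axis and its log2 fold change, M2 over M0, on the y axis. The 31 genes called higher and the 20 called lower are coloured; most of them lie less than 1.5-fold from 0, at levels where the grey cloud is narrow, and genes of low count beyond the y range are not drawn.

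With all 3 M0 libraries the same test called 0 of 14591 genes (0%), with 980 genes (6.72%) at an unadjusted p under 0.05 and a smallest adjusted p of 0.159, that of Gm10705. DESeq2 called 7 genes with the same libraries (0.048%). Of these, Stat3, Masp1, Gnb4 and Sbno2 were higher and Gm10705 and Mgll lower in the calls made without M0 replicate 1 too, while the predicted gene Gm2451 was not among those calls. A fit with limma-voom that gives each library a weight by its quality called 29 genes with all libraries (0.199%), 14 higher and 15 lower, and all 29 were among the 51. It weighted M0 replicate 1 at 0.0158, against 0.973 to 1.88 for the other libraries. The median standard error of a log2 fold change was 0.21 with M0 replicate 1 and 0.09 without it.

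M0 replicate 1 took no part in the calls made without it, so its own values were set beside them. It lay below all 3 M2 libraries for 22 of the 31 genes called higher and above all 3 for 17 of the 20 called lower. All 51 genes were already apart from M0 replicates 2 and 3. Among all genes tested in that fit, the M2 libraries lay above both for 1619 (10.8%), and M0 replicate 1 was also below them for 785 of these (5.24% of genes tested). They lay below both for 1971 (13.2%), and M0 replicate 1 was also above them for 1043 (6.97% of genes tested). Exon length moved with these counts: the genes called higher had a median exon length of 6700 bases, those called lower 2742, and all genes tested 3893, and M0 replicate 1 was low for long and high for short genes. The part of length in the counts was not tested. M0 replicate 1 went against the call, lying above M2, for Eno2, Ifi27, Col16a1, Lgals3, Tspan4 and Arpc1b, and lying below M2 for Tyrp1 and Eps8. For Il12rb1, Rgs16, Socs3 and Gjb2 it lay within the range of the M2 libraries.

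The dependence on length was steep. With the tested genes split by exon length into 5 bins of like size, the median log2 ratio of M0 replicate 1 to the mean of M0 replicates 2 and 3 ran from 0.41 in the shortest bin through 0.32, 0.10 and -0.17 to -0.72 in the longest. The median M2 over M0 change with all M0 libraries ran the opposite way, from -0.28 through -0.15, -0.04 and 0.08 to 0.22. With M0 replicates 2 and 3 every bin had a median within 0.02 of 0. A smooth correction for length brought the medians with all M0 libraries to between -0.05 and -0.02, and edgeR still called 0 genes with it.

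**Figure D2:**
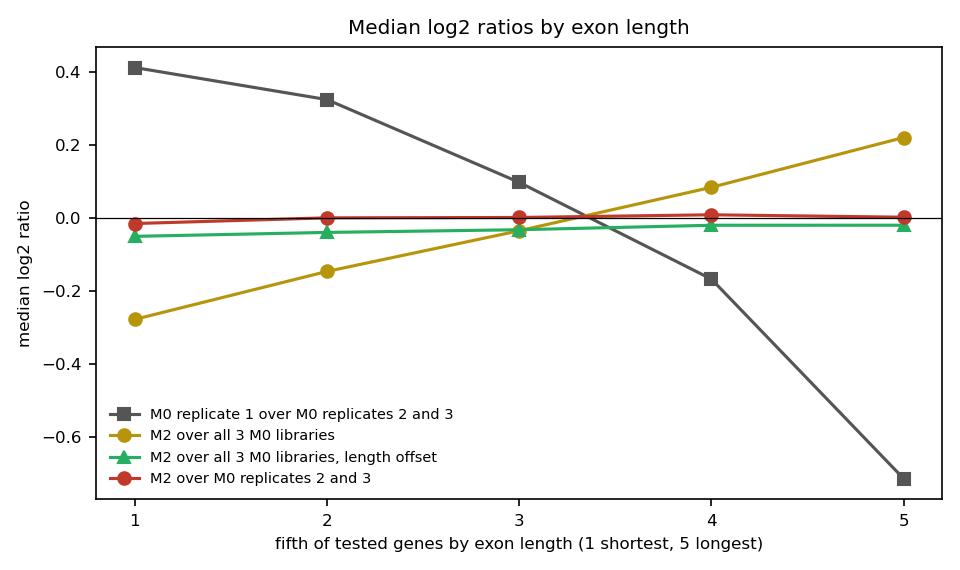
Median log2 ratio (y axis) in 5 bins of the tested genes by exon length, shortest to longest (x axis), for M0 replicate 1 over the other M0 libraries and for M2 over M0 in each fit. The line for M0 replicate 1 falls from 0.41 to -0.72, the line with all M0 libraries rises from -0.28 to 0.22, and the line with M0 replicates 2 and 3 stays at 0.

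Genes of the STAT3 list, which holds Stat3 and genes known to respond to it, lay mostly higher in M2 than in M0 replicates 2 and 3. Of 32 tested members 5 were called higher and 0 lower without M0 replicate 1 (Stat3, Gfap, Socs3, Fos and Bcl6). Over all genes tested in that fit 0.207% were called higher and 0.134% lower. The list's median log2 fold change was 0.13, against 0.00 over all genes tested, and 26 members were above 0. Changes ran from -1.12 to 1.82. The filter ran over all groups, so members with few counts in M0 and M2 enter the 32, the median and the counts here. Fgl1, for example, averaged 0.69 CPM in M0 and 0.24 in M2, against 2.19 in TAM. In 13 members all M2 libraries lay above M0 replicates 2 and 3, and in 1 (Birc5) all lay below, where 10.8% and 13.2% of all genes tested did so. Set against all 3 M0 libraries, 7 members stayed entirely above, against 5.22% of all genes tested in that fit, none was called, and the median was 0.10, with 18 members above 0 and 14 below.

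Stat3 (ENSMUSG00000004040, chr11:100885098-100939540, mm10, minus strand) stood at 74.2, 108 and 101 CPM in M0 and 161, 175 and 161 CPM in M2, each given for replicates 1, 2 and 3 in turn, as for all genes that follow. Every M2 library was above every M0 library. Without M0 replicate 1 its log2 fold change was 0.67 ± 0.05 (SE, adjusted p = 6.76e-14), a rise of 59.1% with a 95% interval of 0.57 to 0.77, and it was called in each of 15 alternative settings of that fit. Its change with all M0 libraries was 0.81 ± 0.13 (SE, adjusted p = 0.481) by edgeR and 0.66 (adjusted p = 6.67e-08) by the weighted fit. The locus overlaps Stat5a in the annotation, and Stat5a had a log2 fold change of -0.03 ± 0.07 (SE, adjusted p = 0.973).

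Socs3 stood at 15.4, 9.76 and 11 CPM in M0 and 16.4, 13.4 and 14.4 CPM in M2. M0 replicate 1 was as high as the M2 libraries while M0 replicates 2 and 3 were below them, so the groups overlapped. Its log2 fold change was 0.50 ± 0.11 (SE, adjusted p = 0.0182) without that library and 0.29 ± 0.16 (SE, adjusted p = 0.535) with it. Without M0 replicate 1, limma-voom did not call Socs3, with or without library weights. Gfap, an intermediate filament gene best known from astrocytes, did not overlap in either set, at 9.20, 6.20 and 6.90 CPM in M0 and 10.4, 10.7 and 10.9 CPM in M2. It rose by 0.70 ± 0.14 (SE) on the log2 scale without M0 replicate 1 (adjusted p = 0.00426), and the change with it was 0.52 ± 0.15 (SE, adjusted p = 0.535). The call of Gfap was also lost without M0 replicate 2, and that of Socs3 without M0 replicate 2, M0 replicate 3 or M2 replicate 1.

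Fos, which encodes a subunit of the AP-1 transcription factor, was low in all libraries, at 1.89, 2.69 and 2.11 CPM in M0 and 4.57, 5.06 and 5.36 CPM in M2. The M2 levels were more than 1.5-fold above every M0 level, with a log2 fold change of 1.08 ± 0.24 (SE, adjusted p = 0.0249), but it was called in 1 of the 5 fits that left out a further library (without M2 replicate 1). Its change with all M0 libraries was 1.17 ± 0.26 (SE, adjusted p = 0.535). Without M0 replicate 1, limma-voom did not call Fos, with or without library weights. Bcl6, a transcriptional repressor induced by several STAT factors, stood at 3.23, 4.13 and 3.69 CPM in M0 and 6.62, 5.40 and 6.29 CPM in M2. Its change of 0.65 ± 0.16 (SE, adjusted p = 0.0479) was near the threshold, and it was called in 1 of those 5 fits (without M2 replicate 2) and in 2 of the 10 other settings, with an adjusted p of 0.108 under the replicate block. Adding M0 replicate 1 gave 0.73 ± 0.14 (SE, adjusted p = 0.535). Sbno2, a transcriptional co-regulator induced by interleukin-10 that is not on the list, was at 54.3, 49.6 and 55.2 CPM in M0 and 67.3, 65.4 and 67.5 CPM in M2 and rose by 0.35 ± 0.06 (SE) on the log2 scale (adjusted p = 0.000419), against 0.33 ± 0.08 (SE, adjusted p = 0.535) with all M0 libraries. With the correction for length the change with all M0 libraries was -0.05 for Sbno2. For Stat3, Fos and Bcl6 it was 0.55, 1.27 and 0.58.

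Other list members missed the threshold. Junb had a log2 fold change of 0.35 ± 0.09 (SE, adjusted p = 0.0725) and the acute-phase gene Serpina3n 1.27 ± 0.46 (SE, adjusted p = 0.424). Socs1, an inhibitor of JAK kinases, is on the IL-4 and STAT6 list and the interferon list, not on the STAT3 list. It missed the threshold too, at 1.30 ± 0.32 (SE, adjusted p = 0.0589). In the other media Stat3 averaged 458 ± 18.1 CPM (SD, n = 3) in M1 and 141 ± 6.22 CPM in TAM, with log2 fold changes over M0 replicates 2 and 3 of 2.17 and 0.42. Those comparisons share the M0 libraries with this one. Socs3 gave 2.15 in M1 and 0.16 in TAM, and Gfap 1.67 and -0.32.

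**Figure D3:**
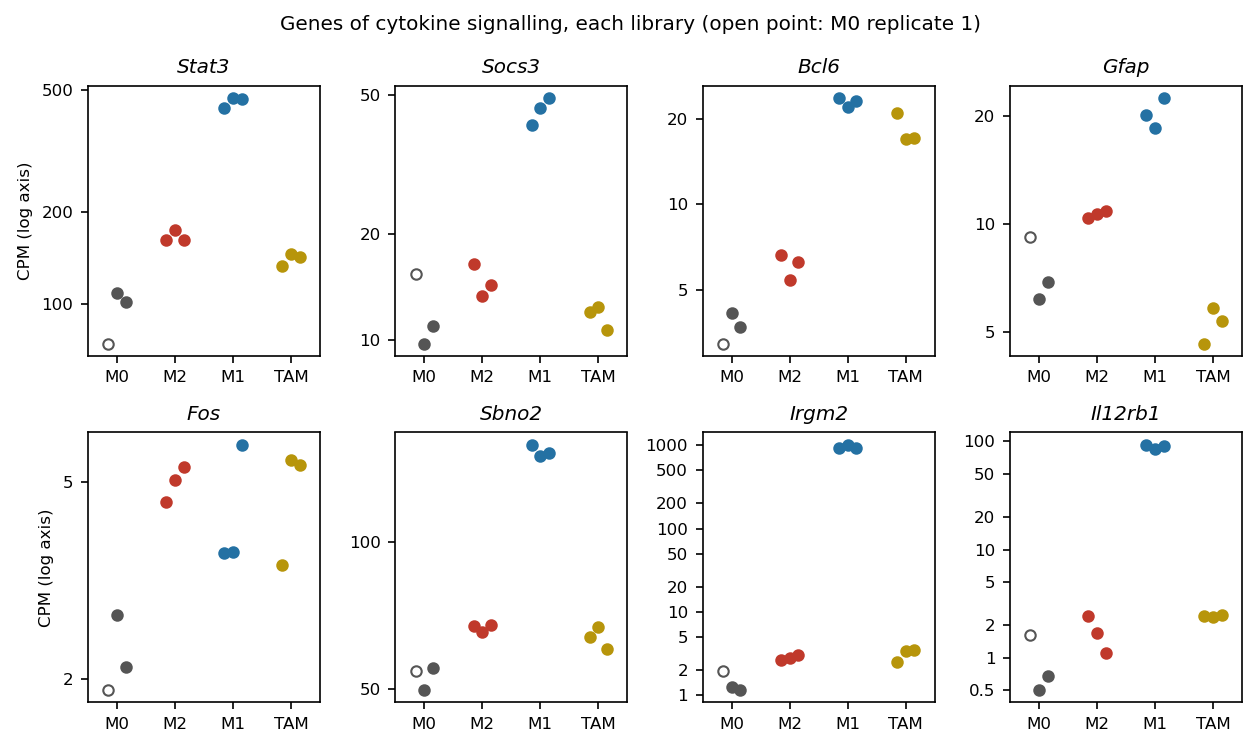
CPM per library (log y axis) of genes of the STAT3 and interferon lists, and of Sbno2, in the M0, M2, M1 and TAM groups (x axis). Sbno2 is on neither list. Each point is 1 library, with M0 replicate 1 marked apart. The 3 M2 libraries of Stat3 lie at 161 to 175 CPM, above all M0 libraries and below the M1 libraries.

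Promoter sequence is shown for called members of these lists because STAT factors bind a palindrome with a gap of 3 bases, TTCNNNGAA, and STAT6 also one with a gap of 4, TTC and GAA with 4 bases between. Of the 51 called genes 37 matched the RefSeq promoter table (GRCm38.p6), which gives 250 bases before and 50 after each start. TTCNNNGAA occurred in 8.3% of 32851 windows. At least 1 window held it for 7 of 25 genes called higher (Bcl6, Dab2, Gfap, Irgm2, Pros1, Sbno2 and Socs3), for 0 of 12 called lower and for 8.28% of 10281 genes tested with a window. The form with a gap of 4, which may overlap the other form, was in windows of 5 of the 25 and 1 of the 12, against 6.57% of genes tested. The interferon response element, searched as TTTC, 2 bases and TTTC, was in 1 of the 25, Irgm2, and 0 of the 12, against 3.73%. Both strands were searched. The motifs are descriptions of letters and not evidence of binding. In the windows below, written 5′ to 3′ on the gene's strand, capitals mark every match to the 3 motifs.
Socs3, chr11:117969317-117969616, minus strand: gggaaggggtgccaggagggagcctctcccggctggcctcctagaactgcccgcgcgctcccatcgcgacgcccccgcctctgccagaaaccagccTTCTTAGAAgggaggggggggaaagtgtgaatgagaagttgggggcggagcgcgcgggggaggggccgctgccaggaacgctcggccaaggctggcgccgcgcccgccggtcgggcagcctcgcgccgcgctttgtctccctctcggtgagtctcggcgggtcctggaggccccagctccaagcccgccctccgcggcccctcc
Gfap, chr11:102897151-102897450, minus strand: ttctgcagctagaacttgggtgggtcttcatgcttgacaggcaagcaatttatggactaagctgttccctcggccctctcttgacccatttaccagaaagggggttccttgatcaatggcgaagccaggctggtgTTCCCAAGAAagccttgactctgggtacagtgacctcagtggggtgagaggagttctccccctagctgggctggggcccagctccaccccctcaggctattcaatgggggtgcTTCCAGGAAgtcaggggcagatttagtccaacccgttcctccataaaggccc
Bcl6, chr16:23988803-23989102, minus strand: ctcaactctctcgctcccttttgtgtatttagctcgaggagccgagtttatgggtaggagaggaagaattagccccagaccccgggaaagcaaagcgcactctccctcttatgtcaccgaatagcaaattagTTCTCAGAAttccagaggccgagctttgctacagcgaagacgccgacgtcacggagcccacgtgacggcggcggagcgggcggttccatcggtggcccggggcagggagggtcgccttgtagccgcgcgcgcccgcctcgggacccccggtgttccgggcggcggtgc
Irgm2, chr11:58214727-58215026, plus strand: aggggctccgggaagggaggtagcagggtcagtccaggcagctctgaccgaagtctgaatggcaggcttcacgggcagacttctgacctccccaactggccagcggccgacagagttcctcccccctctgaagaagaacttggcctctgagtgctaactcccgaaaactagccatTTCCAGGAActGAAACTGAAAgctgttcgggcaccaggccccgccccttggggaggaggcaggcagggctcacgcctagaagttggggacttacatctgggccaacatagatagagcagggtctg

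With positions counted from the start site as 0, the Socs3 window held TTCTTAGAA at -154. The Gfap window held TTCCAGGAA at -2, across the start, and TTCCCAAGAA, with a gap of 4, at -115. The Bcl6 window held TTCTCAGAA at -118, and a window at a start further into the gene held 3 more matches, at -168, -122 and -88. In the Irgm2 window TTCCAGGAA at -75 lay next to GAAACTGAAA, the interferon element read on the other strand, at -64. The windows of Stat3 and Fos held none of the 3 motifs.

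IL-4's own pathway showed no called gene among its receptors and kinases. Of 15 tested genes of the IL-4 and IL-13 receptor list 0 were called, with a median log2 fold change of 0.02. Over all genes tested 0.341% were called, so a count of 0 in a list of this size is near that share. Il4ra was low, at 2.34, 1.94 and 1.68 CPM in M0 and 1.90, 2.23 and 1.91 CPM in M2, with a change of 0.17 ± 0.25 (SE, adjusted p = 0.94). The values of M0 and M2 overlapped. Stat6 had a change of -0.04 ± 0.05 (SE, adjusted p = 0.912) and a 95% interval of -0.13 to 0.05. Il13ra1 had a change of 0.09 ± 0.14 (SE, adjusted p = 0.941), and Il2rg had 9 counts over the M0 and 3 over the M2 libraries. Jak3, the kinase that pairs with the gamma chain, had all M2 libraries above all M0 libraries but missed the threshold, at 0.46 ± 0.13 (SE, adjusted p = 0.125).

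Of 28 genes that IL-4 and STAT6 induce in macrophages and lymphocytes, 8 passed the filter, which ran over all groups, and 1 was called, Bcl6. Socs1, also on this list, missed the threshold, with the values given above. Gata3, 1 of the 8, averaged 0.0394 CPM in M0 and 0.142 in M2, against 1.06 in TAM. Arg1, the arginase gene that marks M2 macrophages, had 7 counts over the M0 and 7 over the M2 libraries, and Chil3, Mrc1 and Ccl22 had none. Ligands and receptors of the interleukin-6 family were also without a call, with 0 of 13 tested genes, where 0.341% of all genes tested were called. Il6st, the shared gp130 chain, had a log2 fold change of 0.05 ± 0.05 (SE, adjusted p = 0.915) and a 95% interval of -0.06 to 0.15. Osmr and Lifr, the receptor chains for oncostatin M and for leukaemia inhibitory factor, had changes of 0.17 ± 0.15 (SE, adjusted p = 0.865) and 0.00 ± 0.21 (SE, adjusted p = 1).

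Of 61 tested interferon-inducible genes 3 were called higher (Irgm2, Il12rb1 and Ifi27; 0.207% of all genes tested were) and 0 lower without M0 replicate 1, and the median log2 fold change was 0.13. The filter ran over all groups, so members could be tested through M1 alone. Those with few or no counts in M0 and M2 enter the 61, the median and the counts that follow. Log2 fold changes ran from -3.74 to 3.15, with 40 above 0 and 18 below. In 15 members all M2 libraries lay above both M0 libraries and in 4 below, against 10.8% and 13.2% of all genes tested. In the fit with all M0 libraries 0 were called, 8 stayed entirely above and 1 below, against 5.22% and 7.08%, and the median was 0.14.

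Irgm2, a GTPase of cell-autonomous immunity, stood at 1.95, 1.25 and 1.15 CPM in M0 and 2.62, 2.83 and 3.01 CPM in M2. All M2 libraries were above all M0 libraries, with a log2 fold change of 1.24 ± 0.21 (SE, adjusted p = 0.000612), against 0.96 ± 0.20 (SE, adjusted p = 0.535) with M0 replicate 1. The call was lost without M0 replicate 3. It was also lost under limma-voom, with and without library weights. Irgm2 overlaps the related gene Igtp in the annotation, and the division of reads between such relatives is uncertain. Igtp had a change of 0.21 ± 0.42 (SE, adjusted p = 0.971). In M1 medium Irgm2 averaged 954 ± 49.4 CPM (SD, n = 3), far above each M2 library.

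Il12rb1, a chain of the interleukin-12 and interleukin-23 receptors, was measured at 1.62, 0.501 and 0.671 CPM in M0 and 2.41, 1.69 and 1.09 CPM in M2. M0 replicate 1 lay within the M2 range, and the log2 fold change was 1.54 ± 0.32 (SE, adjusted p = 0.00691) without it and 0.89 ± 0.37 (SE, adjusted p = 0.535) with it. Ifi27, which encodes a small membrane protein induced by interferon, changed sign with the choice of M0 libraries. Its levels were 70.5, 28.9 and 29.2 CPM in M0 and 35.6, 34.7 and 40.6 CPM in M2, and its log2 fold change was 0.35 ± 0.07 (SE, adjusted p = 0.00471) without M0 replicate 1 and -0.21 ± 0.28 (SE, adjusted p = 0.652) with it. The factor gene Irf1 and the checkpoint ligand gene Cd274, both induced by interferon gamma, were not called, at 0.09 ± 0.09 (SE, adjusted p = 0.883) and 0.24 ± 0.16 (SE, adjusted p = 0.807). The calls of Il12rb1 and Ifi27 were each kept in 2 of the 5 fits that left out a further library and lost without M0 replicate 2 or M0 replicate 3, and also without M2 replicate 1 for Il12rb1 and M2 replicate 3 for Ifi27. Il12rb1 was also not called by limma-voom, with or without library weights, nor with the M2 and M0 libraries alone. Ifi27 was not called by limma-voom without weights. Among 18 tested genes of MHC class I presentation and 9 of class II, 0 were called, and 0.341% of all genes tested were. Members could be tested through M1 alone. Ciita averaged 0.0874 CPM in M0 and 0.0342 in M2, against 24.8 in M1, so the 0 calls cannot speak for such genes.

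Pigment genes lay slightly lower in M2. Of 25 tested members of the pigment and melanosome list 0 were called higher and 5 lower without M0 replicate 1 (0.134% of all genes tested were called lower), and 23 had a negative log2 fold change, with a median of -0.12. In 16 members all M2 libraries lay below both M0 libraries, against 13.2% of all genes tested, and in 1 (Kit) above. These calls rested on single libraries. All 5 were lost without M0 replicate 2 and without M2 replicate 1, Pmel, Tyrp1 and Mlph also without M0 replicate 3, Tyrp1 and Mlph without M2 replicate 3, and Trpm1 without M2 replicate 2. Under the replicate block the adjusted p was 0.064 for Pmel, 0.156 for Tyrp1 and 0.192 for Mlph. Trpm1 was not called with the length offset or with the M2 and M0 libraries alone. Mlph was not called by limma-voom without library weights or with at least 1 CPM required in 3 libraries. With M0 replicate 1 among the controls 9 lay entirely below, against 7.08% of genes tested, the median was -0.11 and 0 were called.

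Pmel, the melanosome fibril protein, stood at 7782, 4681 and 4687 CPM in M0 and 4036, 4147 and 4228 CPM in M2. M0 replicate 1 was far above all other M0 and M2 libraries, and the M2 libraries were the lowest of the 6. The fall was 11.3% without that library, a log2 fold change of -0.17 ± 0.04 (SE, adjusted p = 0.0119), against -0.47 ± 0.17 (SE, adjusted p = 0.535) with it. Pmel overlaps Cdk2 in the annotation, and Cdk2 had a change of -0.14 ± 0.04 (SE, adjusted p = 0.166). Tyrp1, a melanin-synthesis enzyme, stood at 4789, 7375 and 7389 CPM in M0 and 6509, 6734 and 6650.3 CPM in M2. M0 replicate 1 was the lowest of the 6, the reverse of its place for Pmel. The log2 fold change was -0.15 ± 0.03 (SE, adjusted p = 0.0351) without that library, a fall of 9.76%, and 0.02 ± 0.14 (SE, adjusted p = 0.924) with it.

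Trpm1, a cation channel gene of pigment cells, stood at 73.2, 68.9 and 59.9 CPM in M0 and 42.1, 47.5 and 53.1 CPM in M2. All M2 libraries were below all M0 libraries, with a log2 fold change of -0.43 ± 0.09 (SE, adjusted p = 0.0156), against -0.50 ± 0.12 (SE, adjusted p = 0.535) with all M0 libraries. Bace2, a protease that trims the PMEL protein, was measured at 304, 229.8 and 209 CPM in M0 and 178, 187 and 194 CPM in M2. It showed no overlap either, with a change of -0.23 ± 0.05 (SE, adjusted p = 0.00595), against -0.41 ± 0.13 (SE, adjusted p = 0.535) with all M0 libraries. Mlph, which links melanosomes to the actin motor, was at 434, 427 and 416 CPM in M0 and 364, 382 and 371 CPM in M2. The groups did not overlap and it was near the threshold, with a change of -0.17 ± 0.04 (SE, adjusted p = 0.0479), against -0.19 ± 0.08 (SE, adjusted p = 0.535) with all M0 libraries.

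The factors that control these genes were without a call. Of 12 tested melanocyte transcription factors 0 were called (0.341% of all genes tested were), with a median log2 fold change of 0.01. Mitf had a change of -0.06 ± 0.11 (SE, adjusted p = 0.969) and Sox10 of -0.05 ± 0.04 (SE, adjusted p = 0.858). Tyr, which encodes tyrosinase, the first enzyme of melanin synthesis, had a change of 0.01 ± 0.04 (SE, adjusted p = 0.992) with a 95% interval of -0.07 to 0.09, a range that does not reach the fall of Trpm1. Mlana and Dct, both called in neither fit, had changes of -0.13 ± 0.04 (SE, adjusted p = 0.2) and -0.04 ± 0.03 (SE, adjusted p = 0.865). In M1 and TAM medium Pmel averaged 2418 ± 28 and 1583 ± 75 CPM (SD, n = 3), and Trpm1 15 ± 0.936 and 28.7 ± 3.07 CPM.

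**Figure D4:**
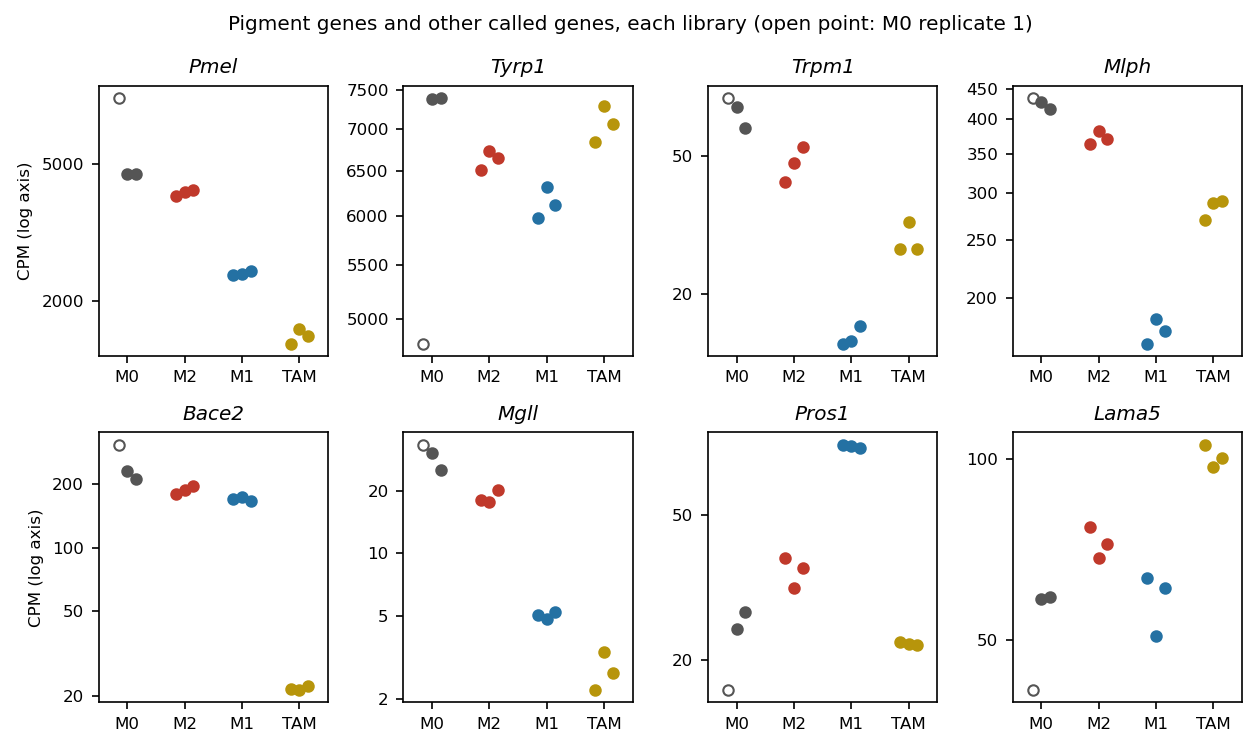
CPM per library (log y axis) of pigment cell genes, and of the called genes Mgll, Pros1 and Lama5, in the M0, M2, M1 and TAM groups (x axis). Each point is 1 library, with M0 replicate 1 marked apart. M0 replicate 1 is the highest of the M0 and M2 libraries for Pmel and the lowest for Tyrp1, and the M2 libraries lie just under M0 replicates 2 and 3 for both.

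Outside these lists, genes of secreted and surface proteins were among those called higher. Pros1 encodes protein S, an anticoagulant and a ligand of the receptors Tyro3, Axl and Mertk, and stood at 16.5, 24.3 and 27 CPM in M0 and 38.1, 31.4 and 35.8 CPM in M2. All M2 libraries were above all M0 libraries, and it rose by 0.45 ± 0.08 (SE) on the log2 scale (adjusted p = 0.000612). Masp1, a serine protease of the lectin complement pathway, was measured at 23.5, 29 and 26.5 CPM in M0 and 36.2, 38.4 and 37.6 CPM in M2. It did not overlap either and had a change of 0.44 ± 0.07 (SE, adjusted p = 0.000419). The gene overlaps Rtp4, an interferon-inducible gene with a change of -0.49 ± 0.32 (SE, adjusted p = 0.797). Lama5, a laminin chain of basement membranes, was at 41.2, 58.4 and 58.8 CPM in M0 and 77, 68.5 and 72.1 CPM in M2 and rose by 0.31 ± 0.07 (SE, adjusted p = 0.0258). It was the 1 member called among 19 tested genes of the collagen and matrix list, and 0.207% of all genes tested were called higher. Fn1, fibronectin, missed the threshold at 0.21 ± 0.05 (SE, adjusted p = 0.0648). In the fit with all M0 libraries, where each had an adjusted p of 0.535, the changes were 0.64 for Pros1, 0.51 for Masp1 and 0.46 for Lama5. With the correction for length they were 0.63, 0.21 and 0.13. Lama5 was called in 1 of the 5 fits that left out a further library (without M2 replicate 2), while Pros1 lost its call without M0 replicate 2 and Masp1 without M0 replicate 3.

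Xylt1, Ndst3 and Sulf2 act on the sugar chains of proteoglycans, the first starting the chains and the others adding or removing sulfate on heparan sulfate. Their log2 fold changes were 0.44 ± 0.07 (SE, adjusted p = 0.000425), 0.44 ± 0.11 (SE, adjusted p = 0.0479) and 0.27 ± 0.06 (SE, adjusted p = 0.0341). Ndst3 was called in 0 of the 5 fits that left out a further library and in 3 of the 10 other settings, so its call was not stable, and Xylt1 lost its call without M0 replicate 2. Signalling genes called higher included Rgs16, which switches off heterotrimeric G proteins, and Gnb4, a G protein beta subunit. Rgs16 stood at 12, 7.51 and 9.30 CPM in M0 and 14.2, 11.9 and 15.7 CPM in M2 with a change of 0.72 ± 0.14 (SE, adjusted p = 0.0375), and M0 replicate 1 fell within the M2 range. Gnb4 stood at 31.8, 31.9 and 37.1 CPM in M0 and 48.2, 44.9 and 44.1 CPM in M2, with no overlap and a change of 0.41 ± 0.07 (SE, adjusted p = 0.000419). Dab2, an endocytic adaptor, and Inpp4b, a phosphoinositide phosphatase, had changes of 0.41 ± 0.07 (SE, adjusted p = 0.000999) and 0.31 ± 0.07 (SE, adjusted p = 0.0452). Rgs16 was called in 1 of the 5 fits that left out a further library (without M2 replicate 2), Gnb4 and Dab2 lost the call without M0 replicate 2, and Inpp4b had an adjusted p of 0.108 under the replicate block. With all M0 libraries, where each had an adjusted p of 0.535, the changes were 0.86 for Xylt1, 0.70 for Ndst3, 0.34 for Sulf2, 0.54 for Rgs16, 0.44 for Gnb4, 0.69 for Dab2 and 0.69 for Inpp4b. With the correction for length Gnb4 had 0.02, and the other genes ranged from 0.23 for Sulf2 to 0.73 for Xylt1.

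Myadm, a protein of cholesterol-rich membranes, stood at 147, 205 and 204 CPM in M0 and 245, 240.2 and 249 CPM in M2. All M2 libraries were above all M0 libraries, and the change of 0.26 ± 0.04 (SE, adjusted p = 0.000419) was called in every alternative of the fit without M0 replicate 1, which held for no other of the 51 genes except Stat3. Ahnak and Plec, giant scaffold proteins, had changes of 0.26 ± 0.06 (SE, adjusted p = 0.0341) and 0.23 ± 0.05 (SE, adjusted p = 0.00644). Fnbp1, Ablim1 and Arpc1b, which act on membrane curvature and actin, had changes of 0.36, 0.35 and 0.18. The kinase gene Dclk1, the tetraspanin Tspan4, the collagen Col16a1 and the matrix protein Adamtsl4 had changes of 0.25, 0.22, 0.34 and 0.34. With all M0 libraries, where none was called, the changes were 0.40 for Myadm, 0.63 for Ahnak, 0.43 for Plec, 0.51 for Fnbp1, 0.52 for Ablim1, 0.49 for Dclk1, 0.19 for Col16a1 and 0.30 for Adamtsl4. With the correction for length Plec and Col16a1 had -0.03 and -0.01. The others just named ranged from 0.13 for Dclk1 to 0.38 for Myadm. Without that correction Arpc1b and Tspan4 changed sign, to -0.03 and -0.16. Lgals3, galectin-3, reversed with the choice of M0 libraries. It stood at 157, 72 and 70.1 CPM in M0 and 83.8, 83.4 and 86.6 CPM in M2, and its change was 0.26 ± 0.05 (SE, adjusted p = 0.00471) without M0 replicate 1 and -0.24 ± 0.25 (SE, adjusted p = 0.59) with it. It was the 1 member called among 14 tested checkpoint and suppression genes, and 0.207% of all genes tested were called higher. Eno2, an enolase and the 1 member called among 40 tested glycolysis and hypoxia genes, had a change of 0.36 ± 0.08 (SE, adjusted p = 0.0249) and also had M0 replicate 1 above M2, which gave 0.11 ± 0.16 (SE, adjusted p = 0.674) with all M0 libraries. Without M0 replicate 1, limma-voom did not call Eno2, with or without library weights. Lgals3 and Eno2 both lost the call without M0 replicate 2 or M0 replicate 3, and Eno2 without M2 replicate 3 and under the replicate block (adjusted p = 0.051).

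Among the genes called lower, Mgll had the largest fall of a protein-coding gene. It encodes monoacylglycerol lipase, which splits the endocannabinoid 2-arachidonoylglycerol, and stood at 33.2, 30.2 and 25.2 CPM in M0 and 18.1, 17.5 and 20.2 CPM in M2. All M2 libraries were below all M0 libraries, with a change of -0.56 ± 0.11 (SE, adjusted p = 0.00365). In M1 and TAM it averaged 5.03 ± 0.194 and 2.73 ± 0.575 CPM (SD, n = 3). Gm10705, a processed pseudogene, stood at 4.07, 4.32 and 3.83 CPM in M0 and 1.44, 1.54 and 1.97 CPM in M2 with a change of -1.30 ± 0.23 (SE, adjusted p = 0.00136), and reads of its parent gene could have been counted there. The mitochondrial gene mt-Atp6, a subunit of ATP synthase, was at 37.7, 26.7 and 34.5 CPM in M0 and 22.3, 23.1 and 22.8 CPM in M2. It fell by 0.43 on the log2 scale (adjusted p = 0.00864), and it overlaps mt-Co3 at its end. Changes with all M0 libraries were -0.66 for Mgll, -1.30 for Gm10705 and -0.54 for mt-Atp6. Mgll and Gm10705 lost the call without M0 replicate 2, and mt-Atp6 without M0 replicate 3 or M2 replicate 1.

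Katna1, a subunit of the microtubule-severing enzyme katanin, stood at 44.8, 30.5 and 31.7 CPM in M0 and 24.5, 22.6 and 24.9 CPM in M2 with a change of -0.37 ± 0.08 (SE, adjusted p = 0.00807). M0 replicate 1 was the highest of the 6 libraries. Car14, a membrane carbonic anhydrase, was at 278, 242 and 229 CPM in M0 and 199, 206 and 199 CPM in M2 with a change of -0.22 ± 0.04 (SE, adjusted p = 0.00471). Among others called lower, Ptgds, prostaglandin D2 synthase, had -0.20 ± 0.05 (SE, adjusted p = 0.0341), Gjb2, the gap junction protein connexin 26, -0.24 ± 0.05 (SE, adjusted p = 0.00652), and Alyref, an mRNA export factor, -0.25 ± 0.05 (SE, adjusted p = 0.00338). Changes of the rest were -0.41 for the pseudogene Gm14681, -0.31 for the ciliary transport gene Ift74, -0.28 for the phosphatase inhibitor Ppp1r14b, -0.26 for the cytochrome Cyp2j6, -0.25 for Zmynd19, -0.21 for Cyhr1 and -0.20 for the actin regulator Eps8. When M0 replicate 1 was included, where none was called, the changes were -0.57 for Katna1, -0.31 for Car14, -0.67 for Ptgds, -0.17 for Gjb2, -0.44 for Alyref, -0.50 for Gm14681, -0.26 for Ift74, -0.82 for Ppp1r14b, -0.27 for Cyp2j6, -0.38 for Zmynd19 and -0.41 for Cyhr1. Eps8 changed sign, to 0.06. Ift74, Ppp1r14b and Zmynd19 were called in 0 of the 5 fits that left out a further library, Cyhr1 in 1, Cyp2j6, Katna1, Eps8 and Ptgds in 2, Alyref and Gjb2 in 3 and Car14 in 4. Of the 51 called genes 30 overlap another annotated gene and 13 overlap another tested gene, and the strand setting of the counting is not given in the sources used here.

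Over all genes tested without M0 replicate 1, 0.341% were called. The remaining lists held no called gene in that fit, apart from Fos in the immediate early list (1 of 26 tested). This covers 22 tested NF-kB and inflammatory genes, 21 ERK feedback genes, 19 IGF and PI3K genes, 23 TGF-beta and BMP targets, 11 Wnt targets, 21 mesenchymal and invasion genes, 37 cholesterol and fatty acid genes, 37 stress response genes, 17 arginine and polyamine genes and 23 p53 targets. The cell cycle list had a median of -0.04 over 46 tested genes, and in 16 of them all M2 libraries lay below both M0 libraries (13.2% of all genes tested), with 0 above. None of the 46 was called. The ribosomal protein list moved with M0 replicate 1. Its median was -0.57 with all M0 libraries and -0.05 without that library, over 54 genes. In 20 of them all M2 libraries lay below M0 replicates 2 and 3, and in 1 all lay above. Of all genes tested, 13.2% and 10.8% did so. For 48 nuclear genes of oxidative phosphorylation the medians were -0.45 and -0.06. In 15 of these all M2 libraries lay below M0 replicates 2 and 3, and in 0 above.

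**Figure D5:**
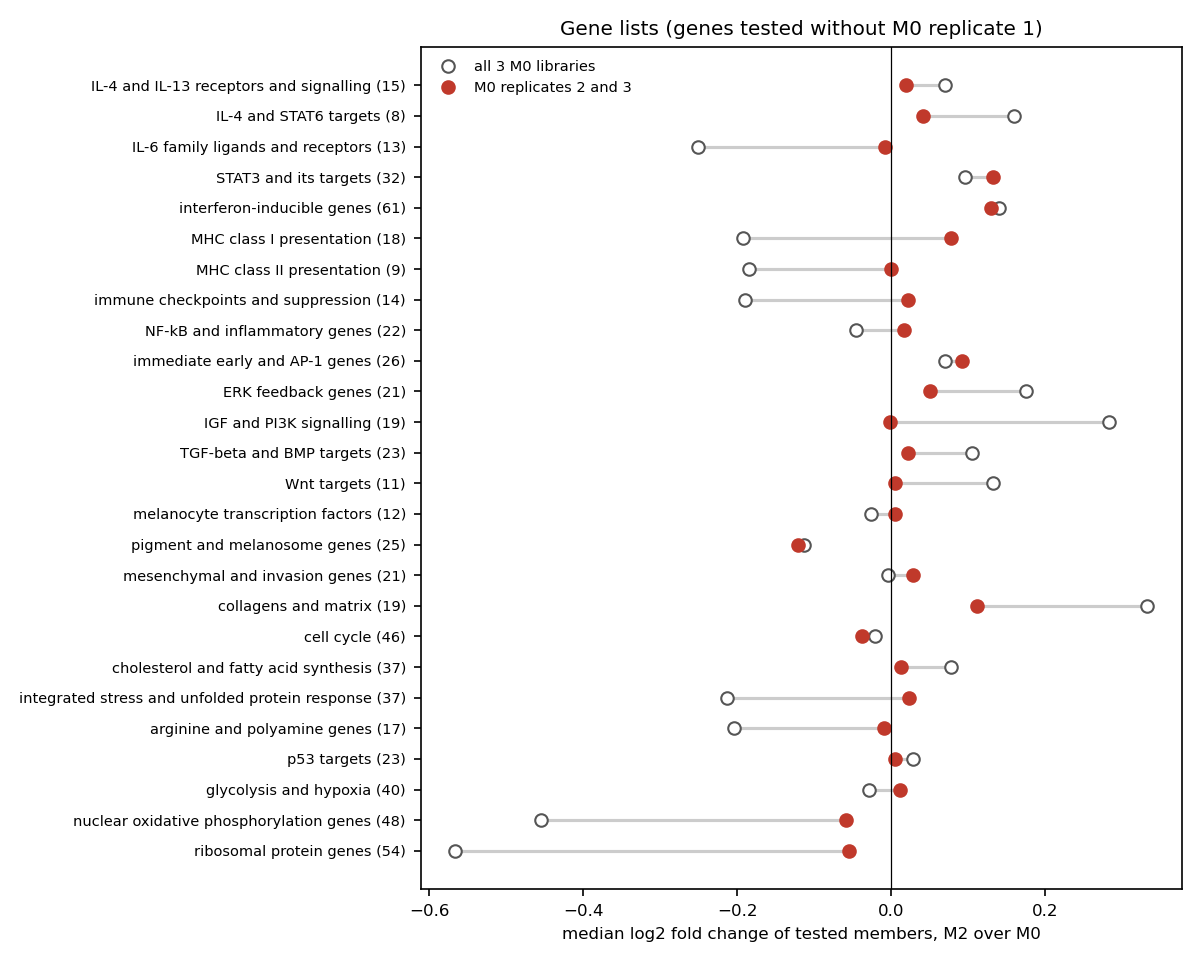
Median log2 fold change, M2 over M0, of the tested members of each gene list (y axis, with the number tested), with all 3 M0 libraries (open points) and with M0 replicates 2 and 3 (filled points). Filled points lie close to 0, the STAT3 and interferon lists at 0.13 and the pigment list at -0.12, while the open points of ribosomal protein and oxidative phosphorylation genes lie at -0.57 and -0.45.

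The intervals bound what the libraries could have missed, for genes with counts in M0 and M2. Without M0 replicate 1, 12186 of the 14968 tested genes (81.4%) had a 95% interval of the log2 fold change that lay within 2-fold in either direction, and 10612 (70.9%) within 1.5-fold. With all M0 libraries these were 10187 of 14591 (69.8%) and 5694 (39.0%). These intervals are per gene and not adjusted for their number. For the remaining genes of each fit the interval reached a 2-fold change or beyond. Genes with no counts in M0 and M2 could be tested through M1 or TAM. An estimate of exactly 0 has an SE of 0 by the formula used, so such genes count as inside although nothing was measured. Their number was not determined, and the shares inside are to that extent too high.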

How the data were processed

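Raw read counts, as the authors deposited them, covered 55487 genes in 12 libraries of B16F10 RNA. The submitters' processing notes name HISAT2 2.0 and the build mm10. The sources used here do not give the counter, annotation release or strand setting. Groups and replicate numbers came from the labels. Coordinates and exon lengths came from GENCODE M21 (55227 genes matched), and promoters from RefSeq.

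Tests were run with edgeR 4.0.16 under R 4.3.3 (filterByExpr by group, TMM scaling, robust quasi-likelihood fit with a mean per group). All 12 libraries entered 1 fit, and 11 entered a second without M0 replicate 1. M2 minus M0 was tested in each and adjusted by Benjamini-Hochberg over all genes tested, with calls at an adjusted p under 0.05. Unless another tool is named, each adjusted p and fold change is from edgeR, and those given without naming the libraries are from the fit without M0 replicate 1. The standard error (SE) is the absolute log2 fold change divided by the square root of F. CPM were TMM-scaled in the 12-library fit. Alternatives used DESeq2 1.42.0 and limma 3.58.1 (voom), other scalings and filters, a replicate block, a length offset and left-out libraries. Steps were tested on simulated data.

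Genes described were the 15 largest rises and falls among called genes (at least 1 CPM, no overlap between groups, no predicted genes), called members of 26 gene lists and up to 3 further members per list, genes called by DESeq2, the 5 smallest p in each direction with all M0 libraries, and fixed checks. The other called genes, Stat5a, Igtp and Rtp4 were chosen after their values were seen. Members and lists were chosen with earlier results of these data known. With all M0 libraries, same-numbered M0 and M2 libraries deviated together with correlations of 0.04, 0.25 and -0.20. Those deviations are taken from an M0 mean that holds M0 replicate 1. With M0 and M2 replicates 2 and 3 only, the correlation was 0.054. These values cannot settle whether the numbers pair the libraries, and the main fits used no replicate block.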

Additional observations from a re-analysis of the deposited data

How the results depend on the processing

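With all M0 libraries the count of called genes was 0 under the replicate block, the other scalings and filters, limma-voom, the M2 and M0 libraries alone and the length offset, 7 with DESeq2 and 29 with library weights. Leaving out 1 library at a time gave 0 to 51, the highest without M0 replicate 1. With M0 replicates 2 and 3 the 51 calls became 45 with the replicate block (40 of them shared), 83 without a filter, 32 with limma-voom and 9 to 52 with 1 further library left out, the lowest without M0 replicate 2; the other settings gave 41 to 56. The cause of these moves was not tested. Of 570 values of the 38 called genes that the naming rule selects, all from alternatives of the fit without M0 replicate 1, 416 were called in the same direction, 154 were not called and 0 changed sign. Adding M0 replicate 1 left 27 of the 31 genes called higher and 18 of the 20 called lower with the same sign: Ifi27 became -0.21, Lgals3 -0.24, Tspan4 -0.16, Arpc1b -0.03, Tyrp1 0.02 and Eps8 0.06. With all M0 libraries at 99% confidence 8131 genes had intervals within 2-fold and 3971 within 1.5-fold. Without that library they were 11493 and 10001. These counts too include genes with an estimate of exactly 0. Depth and the number of libraries both limit precision, and their parts were not compared.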
